A study of Mus musculus with 8 samples.

Results

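The α2δ and β subunits are the auxiliary subunits of voltage-gated calcium channels. In the mouse they are encoded by Cacna2d1 to Cacna2d4 and by Cacnb1 to Cacnb4, and these 8 genes, found among the 55414 genes listed in each count file, were compared between dorsal root ganglia (DRG) of AD1 OE and Control embryos. Both families were taken whole by gene symbol, whatever their levels.

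Transcripts were measured by bulk RNA-seq at E18.5. AD1 OE embryos carried AdvillinCre/+;Rosa26Dach1/+, and Control embryos carried Advillin+/+;Rosa26Dach1/+. Both groups therefore had the Rosa26 allele, in which a stop cassette flanked by loxP sites precedes Dach1 and EGFP, and only AD1 OE embryos had Cre. Cre was knocked into the Advillin gene (Avil), which is active in sensory neurons, so that AD1 OE embryos had 1 intact Avil allele and were expected to express Dach1, a transcriptional regulator, throughout the sensory neurons. The labels describe the ganglia as neurons and glia, and the Rosa26Dach1 mice were of mixed C57Bl/6J and CD1 background. Each group had 4 libraries with replicate numbers 1 to 4. The study describes its samples as embryos of each genotype, and whether any library pooled several embryos is not given in the sources used here. Per the study, Dach1 in AD1 OE embryos was first restricted normally and was broadly expressed again at a later stage. The comparison addressed the transcripts of the ganglion under this late, broad Dach1 expression. Cre and the loss of 1 intact Avil allele went with it in every AD1 OE library.

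The channel itself is a pore-forming α1 protein of the Cacna1 family. In high-voltage-activated channels, a β subunit binds the cytoplasmic side of the pore protein and favours its delivery to the membrane and its opening, and an α2δ subunit, a glycoprotein held on the outer face of the membrane, raises the number of channels at the surface and at presynaptic terminals. In DRG neurons these channels carry the calcium entry that releases transmitter in the spinal cord, and α2δ-1 and α2δ-2 are the proteins that bind the pain drugs gabapentin and pregabalin.

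The α2δ genes differ in a stretch of coding sequence that matters for drug binding. A stretch of 81 coding bases (27 codons) around an arginine triplet needed for gabapentin binding and the start of the metal-ion-dependent adhesion site is shown for the 4 genes, because the results turn on the 2 drug-binding members. The first run of capitals marks the codons of the triplet and the second run marks the 5 codons of the adhesion-site motif. The sequences are GENCODE M21 transcripts (GRCm38), written 5′ to 3′ on the coding strand with introns removed.
Cacna2d1: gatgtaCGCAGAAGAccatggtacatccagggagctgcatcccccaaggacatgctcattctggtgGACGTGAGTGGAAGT
Cacna2d2: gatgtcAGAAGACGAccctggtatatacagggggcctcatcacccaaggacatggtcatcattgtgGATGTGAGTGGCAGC
Cacna2d3: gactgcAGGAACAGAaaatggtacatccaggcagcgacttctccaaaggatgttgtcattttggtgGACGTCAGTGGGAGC
Cacna2d4: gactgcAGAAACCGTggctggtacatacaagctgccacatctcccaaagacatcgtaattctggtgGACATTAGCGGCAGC

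All 3 codons of the triplet encode arginine in Cacna2d1 and Cacna2d2, and 2 of 3 do in Cacna2d3 and Cacna2d4. The stretch lies in exons 8 to 10 of Cacna2d1-201 (chr5:16264308-16267385, plus strand) and in exons 8 to 10 of Cacna2d2-203 (chr9:107512341-107513242, plus strand). In Cacna2d3-201 it lies in exons 7 to 8 (chr14:29346971-29347141, minus strand), and in Cacna2d4-201 in exons 7 to 8 (chr6:119267848-119268256, plus strand). Cacna2d1 and Cacna2d2 shared 63 of the 81 bases, and Cacna2d3 and Cacna2d4 shared 59. The other pairs shared from 52 (Cacna2d1 and Cacna2d4) to 57 bases (Cacna2d1 and Cacna2d3, and Cacna2d2 and Cacna2d4).

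Library totals ranged from 22339059 to 44025625 counts. Dach1 was at 91.4 to 102.0 CPM (counts scaled by each library's total) in the AD1 OE libraries against 30.2 to 33.6 CPM in the Control libraries, and Avil at 449.1 to 477.7 against 839.4 to 918.1 CPM, so that both genes went with the labels. Xist and Y-linked genes showed that the sexes were unequal: 3 of the 4 AD1 OE libraries were male and 3 of the 4 Control libraries were female. Summed markers of neurons (8390 to 9078 CPM against 8750 to 9109 CPM) and of glia (1040 to 1301 against 1076 to 1300 CPM) overlapped between the groups. Of 10 nociceptor markers, 4 fell in AD1 OE and none rose, counted by the rule for calls given below. Over all tested genes, 1.78% were called as lower and 0.784% as higher. Among the nociceptor markers Scn11a had the highest log2 fold change, 0.21 (adjusted p = 0.0858, edgeR with Benjamini-Hochberg). The sum of the 10 did not overlap (3313 to 3589 CPM against 3909 to 4329 CPM). Scn10a, Calca and Mrgprd on this list were named by the study from these libraries. Of 7 markers of large-diameter sensory neurons, 1 fell, Etv1 (log2 fold change -0.97, adjusted p = 6.39e-06, edgeR with Benjamini-Hochberg), while Nefh was at -0.24 and Ntrk3 at 0.30 with adjusted p values of 0.0116 and 0.0171, and the sums overlapped (1260 to 1363 CPM against 1352 to 1467 CPM). The part of these shifts in the values of the channel subunits was not tested. Of the other marker lists, the sum of spinal cord markers was highest in Control replicates 1 and 4 (23.6 and 12.8 CPM, against 2.80 to 6.34 CPM in the other 6 libraries). The sum of skeletal muscle markers was highest in AD1 OE replicate 3 (569.9 CPM, against 123.3 to 379.5 CPM). That of erythroid markers was highest in AD1 OE replicate 2 (610.9 CPM, against 170.6 to 304.1 CPM in the other libraries).

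Within the 2 families, Cacna2d2 was higher in AD1 OE than in Control in every library, and Cacna2d1 and Cacnb1 were lower in every library, but all 3 differences were small. No subunit gene was called changed. A gene was called changed at a Benjamini-Hochberg adjusted p under 0.005 in edgeR's quasi-likelihood test, provided that its log2 fold change exceeded 0.25 in size. Of the 8 genes 7 had enough counts to be tested, and 0 were called. By that rule 2.57% of the 17721 tested genes were called, 0.784% as higher and 1.78% as lower in AD1 OE. DESeq2 and limma-voom also called 0 of the 7. At an unadjusted p under 0.05 edgeR counted 4 of the 7, where 18.6% of all tested genes were under it, and at an adjusted p under 0.05 without a limit on the fold change it counted 1, Cacna2d2, where 6.55% of all tested genes passed. The median log2 fold change of the 7 genes was -0.10, beside 0.00182 over all tested genes. The groups did not overlap for 3 of the 7, against 12.9% of all tested genes. From RNA of whole ganglia alone, fewer cells of a type and less RNA per cell cannot be told apart. The study also counted neurons stained for Islet1, Prdm12, TrkB and TrkC at E18.5. It reported that AD1 OE embryos had the main neuron subtypes in appropriate numbers. From staining of E18.5 sections it also reported Th and Mef2C up and Calca/CGRP, MafA, TrpM8 and Cdh3 down. The part of cell numbers in the subunit values was not tested.

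**Figure D1:**
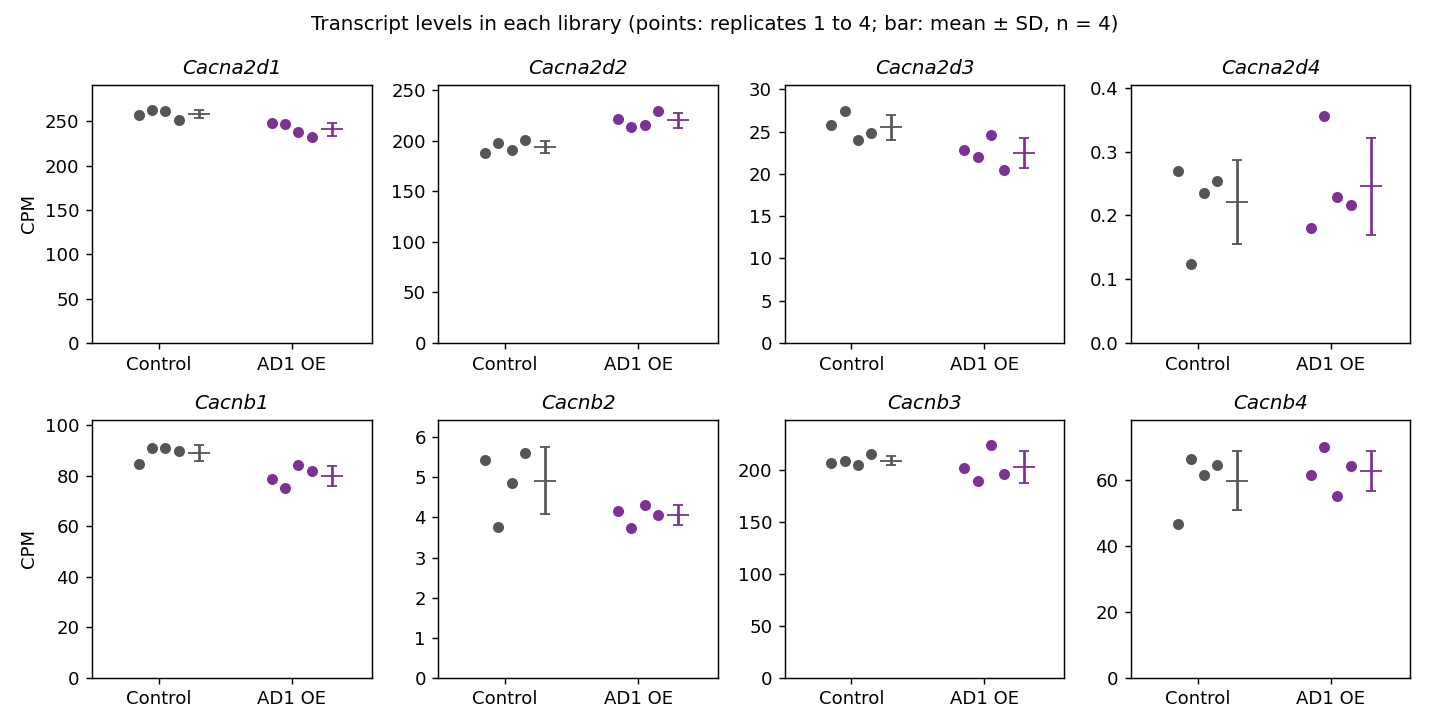
CPM of each α2δ gene (top) and β gene (bottom) in the 4 Control and 4 AD1 OE libraries, with points for replicates 1 to 4 and bars for mean ± SD. Cacna2d2 lies between 187.6 and 200.5 CPM in the Control libraries and between 213.7 and 230.1 CPM in AD1 OE, whereas the Cacnb4 points of the groups are mixed.

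Cacna2d2 (ENSMUSG00000010066, chromosome 9) encodes α2δ-2, best known from cerebellar Purkinje cells, where its loss gives the ducky mouse. It was at 222.1, 213.7, 215.5 and 230.1 CPM in AD1 OE replicates 1 to 4 and at 187.6, 198.0, 191.1 and 200.5 CPM in Control replicates 1 to 4. All 4 AD1 OE libraries were above all 4 Control libraries. The means were 220.3 ± 7.42 and 194.3 ± 5.97 CPM (SD, n = 4), a log2 fold change of 0.18 (SE 0.037) or 1.13-fold (95% confidence interval 1.07 to 1.20). The adjusted p was 0.0116 (edgeR, Benjamini-Hochberg), which missed the 0.005 threshold, and the fold was also under the 0.25 limit. With sex as a term in the fit the log2 fold change was 0.16 and the adjusted p 0.0719, and over all alternatives the adjusted p ranged from 0.000233 in DESeq2 to that value. Within the sexes the difference in mean log2 CPM was 0.17 in females and 0.15 in males. Antisense Gm17141 shares 82 exon bases (1.03%) with the gene and had 1 to 6 counts per library.

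Cacna2d1 (ENSMUSG00000040118, chromosome 5) encodes α2δ-1, the main gabapentinoid target in sensory neurons and also a receptor for thrombospondins. The AD1 OE libraries held 247.5, 246.6, 237.3 and 232.1 CPM, and the Control libraries 257.1, 262.5, 261.1 and 251.7 CPM. Every AD1 OE library was below every Control library, with a gap smaller than the range within either group. The means of 240.9 ± 7.43 and 258.1 ± 4.87 CPM (SD, n = 4) gave a log2 fold change of -0.10 (SE 0.036, 95% confidence interval -0.18 to -0.020), a change of -6.66%. Its adjusted p of 0.154 (edgeR, Benjamini-Hochberg) did not pass. Thus the 2 drug-binding genes lay on opposite sides of zero, and only Cacna2d2 had an adjusted p under 0.05.

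Cacna2d3 (ENSMUSG00000021991, chromosome 14) encodes α2δ-3, which has been tied to heat pain and to auditory synapses. It was at 22.9, 22.0, 24.6 and 20.4 CPM in the AD1 OE libraries and at 25.8, 27.4, 24.0 and 24.8 CPM in the Control libraries. The highest AD1 OE library, replicate 3, lay above the lowest Control library, also replicate 3. The log2 fold change was -0.18 (SE 0.067), with means of 22.5 ± 1.73 and 25.5 ± 1.46 CPM (SD, n = 4) and an adjusted p of 0.160 (edgeR, Benjamini-Hochberg). The 95% confidence interval, -0.33 to -0.035, reached as far as a change larger than the 0.25 limit.

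Cacna2d4 (ENSMUSG00000041460, chromosome 6) encodes α2δ-4, the subunit of photoreceptor terminals. It had 8, 8, 6 and 6 counts in the AD1 OE libraries and 6, 4, 6 and 9 counts in the Control libraries, 28 and 25 counts in all. The exact Poisson intervals, 18.6 to 40.5 and 16.2 to 36.9 counts, overlapped and cover counting error only. The gene did not pass the filter on low counts. In a fit without that filter its log2 fold change was 0.12 (95% confidence interval -0.76 to 1.00) with an adjusted p of 0.940 (edgeR, Benjamini-Hochberg), so that no difference was detectable at this depth.

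On a scale of CPM per kb of exon, which allows levels to be compared between genes, Cacna2d2 and Cacna2d1 made up nearly the whole α2δ family. Cacna2d2 averaged 26.1 CPM per kb over the 8 libraries (23.6 to 29.0), Cacna2d1 20.1 (18.7 to 21.1), Cacna2d3 2.75 (2.34 to 3.14) and Cacna2d4 0.0246 (0.0131 to 0.0376). No neighbours in this order overlapped. As a share of the family sum, Cacna2d2 took 55.7% ± 1.47 in AD1 OE and 50.7% ± 0.994 in Control (SD, n = 4), and Cacna2d1 39.0% ± 1.22 and 43.1% ± 0.936.

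The shares of both genes were separate between groups. Cacna2d2 ranged from 54.5% to 57.9% in AD1 OE and from 49.9% to 52.2% in Control, and Cacna2d1 from 37.4% to 40.3% and from 41.9% to 44.0%. The ratio of Cacna2d1 to Cacna2d2 was 0.701 ± 0.0393 in AD1 OE and 0.851 ± 0.0343 in Control (SD, n = 4). Cacna2d3 took 5.19% ± 0.435 and 6.07% ± 0.297, which was also separate, by a narrow gap from 5.75% to 5.76%. These shares are a description with no test, and the lead of Cacna2d2 depends on the lengths used. With the longest transcript of each gene instead of all exons, Cacna2d1 took 46.2% and Cacna2d2 44.5% in Control, against 42.4% and 49.6% in AD1 OE. With those lengths the Cacna2d3 share overlapped between the groups. The family sum itself overlapped, at 49.7 ± 0.659 and 48.2 ± 0.810 CPM per kb (SD, n = 4).

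**Figure D2:**
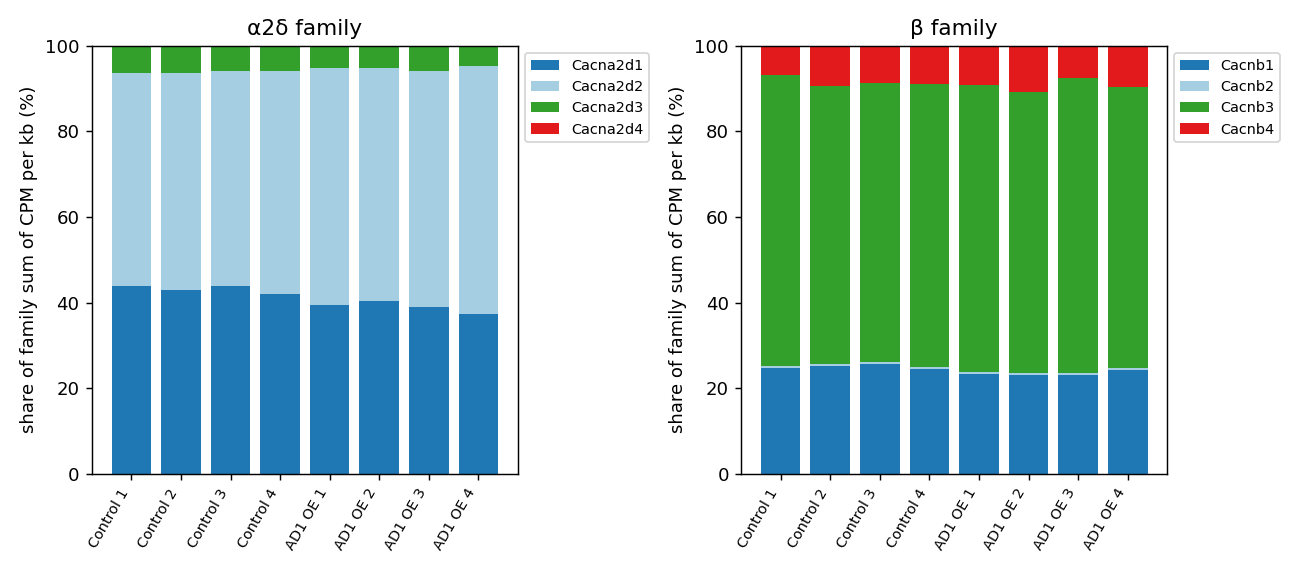
Share (%) of each gene in its family's sum of CPM per kb of exon, for the α2δ genes (left) and the β genes (right), with 1 bar per library. In the α2δ family the Cacna2d2 segment spans 49.9% to 52.2% in Control and 54.5% to 57.9% in AD1 OE, whereas Cacnb3 holds 65.1% to 69.0% of the β family in every library.

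Among the β genes, Cacnb3 was the most abundant and the groups overlapped for all but Cacnb1. Cacnb3 (ENSMUSG00000003352, chromosome 15) encodes β3, a partner of N-type channels in neurons. It was at 201.9, 189.2, 223.9 and 195.9 CPM in the AD1 OE libraries and at 206.8, 208.5, 204.8 and 215.6 CPM in the Control libraries. The AD1 OE libraries enclosed the Control range. The means were 202.7 ± 15.01 and 208.9 ± 4.71 CPM (SD, n = 4), with a log2 fold change of -0.043 (SE 0.049, 95% confidence interval -0.15 to 0.063) and an adjusted p of 0.699 (edgeR, Benjamini-Hochberg). Single libraries moved this value, to -0.010 without AD1 OE replicate 2, -0.023 without AD1 OE replicate 4, -0.025 without Control replicate 4 and -0.086 without AD1 OE replicate 3, and with sex as a term it was -0.013.

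Values within each sex rest on 1 AD1 OE female and 1 Control male library. The difference in mean log2 CPM was 0.12 in females and -0.14 in males for Cacnb3, and -0.060 and 0.012 for Cacnb4, and it kept its sign for the other 5 tested members. No interaction of genotype and sex passed among the 7, with adjusted p values from 0.992 to 0.995 (edgeR, Benjamini-Hochberg).

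Cacnb1 (ENSMUSG00000020882, chromosome 11) encodes β1, which is the β subunit of skeletal muscle and is also found in neurons. AD1 OE replicates 1 to 4 held 78.9, 75.2, 84.5 and 81.9 CPM, and Control replicates 1 to 4 held 84.6, 91.0, 91.1 and 89.7 CPM. The groups were separate, but AD1 OE replicate 3 and Control replicate 1 were almost level. The means were 80.2 ± 3.97 and 89.1 ± 3.06 CPM (SD, n = 4), a log2 fold change of -0.15 (SE 0.043, 95% confidence interval -0.25 to -0.059) or -10.1%. The adjusted p was 0.0585 in edgeR and 0.0305 in DESeq2 (Benjamini-Hochberg in both). AD1 OE replicate 3, the library with the highest muscle marker sum, was also the highest of its group for Cacnb1. Control replicate 1, which had the next highest muscle marker sum (379.5 CPM), was the lowest of its group. The part of muscle tissue in the Cacnb1 values was not tested. When 1 library was left out, the log2 fold change ranged from -0.17 to -0.12 and the adjusted p from 0.0377, without Control replicate 1, to 0.158, without AD1 OE replicate 1 (edgeR). The adjusted p was under 0.05 in 1 other case, without AD1 OE replicate 3 (0.0407). With sex as a term the log2 fold change was -0.13 and the adjusted p 0.215. Gm11629 on the other strand shares 80 exon bases (1.77%) with Cacnb1 and had 3 to 16 counts per library.

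Cacnb4 (ENSMUSG00000017412, chromosome 2) encodes β4, whose loss gives the lethargic mouse. It was at 61.4, 69.9, 55.1 and 64.3 CPM in the AD1 OE libraries and at 46.5, 66.2, 61.5 and 64.5 CPM in the Control libraries. Control replicate 1 was far below the other Control libraries, and the groups overlapped. The log2 fold change was 0.064 (SE 0.10), with means of 62.6 ± 6.15 and 59.7 ± 9.005 CPM (SD, n = 4) and an adjusted p of 0.797 (edgeR, Benjamini-Hochberg). Its direction was not stable, since it was -0.032 without Control replicate 1 and -0.034 with sex as a term. The transcript A430018G15Rik on the other strand shares 1433 exon bases (15.99%) with Cacnb4 and had 2 to 8 counts per library.

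Cacnb2 (ENSMUSG00000057914, chromosome 2) encodes β2, the main β subunit of the heart. It was at 4.15, 3.74, 4.32 and 4.06 CPM in the AD1 OE libraries and at 5.44, 3.76, 4.87 and 5.61 CPM in the Control libraries. Only Control replicate 2 lay within the AD1 OE range. The log2 fold change, -0.27 (SE 0.13), was the largest in size among the 7 tested genes and had the widest confidence interval (-0.55 to 0.012), with an adjusted p of 0.292 (edgeR, Benjamini-Hochberg). When 1 library was left out it ranged from -0.38, without Control replicate 2 (adjusted p = 0.0786), to -0.19, without Control replicate 4 (adjusted p = 0.533, edgeR). The 3 genes that share exon bases with Cacnb2 on the other strand had at most 1 count in any library.

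Per kb of exon, Cacnb3 averaged 51.3 CPM (47.2 to 55.8), the highest of all 8 subunit genes. Cacnb1 averaged 18.7 CPM per kb (16.6 to 20.1), which overlapped the range of Cacna2d1, and no other neighbours among the 8 overlapped. Cacnb4 followed at 6.83 (5.19 to 7.79) and Cacnb2 at 0.340 CPM per kb (0.283 to 0.424). Cacnb3 took 66.9% ± 1.58 of the β sum in AD1 OE and 66.1% ± 1.33 in Control (SD, n = 4). Cacnb1 took 23.4% ± 0.591 and 25.0% ± 0.561, which was separate by a narrow gap, from 24.3% to 24.4%. Cacnb4 took 9.30% ± 1.35 and 8.43% ± 1.08, and Cacnb2 0.407% and 0.473%.

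The auxiliary families were also set beside the pore genes of the high-voltage-activated channels (Cacna1a to Cacna1f and Cacna1s). The α2δ sum over the pore sum, both in CPM per kb, was 0.790 ± 0.0304 in AD1 OE and 0.788 ± 0.0239 in Control (SD, n = 4). The β sum over the pore sum was 1.20 ± 0.0718 and 1.29 ± 0.0347. The groups overlapped in both ratios.

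**Figure D3:**
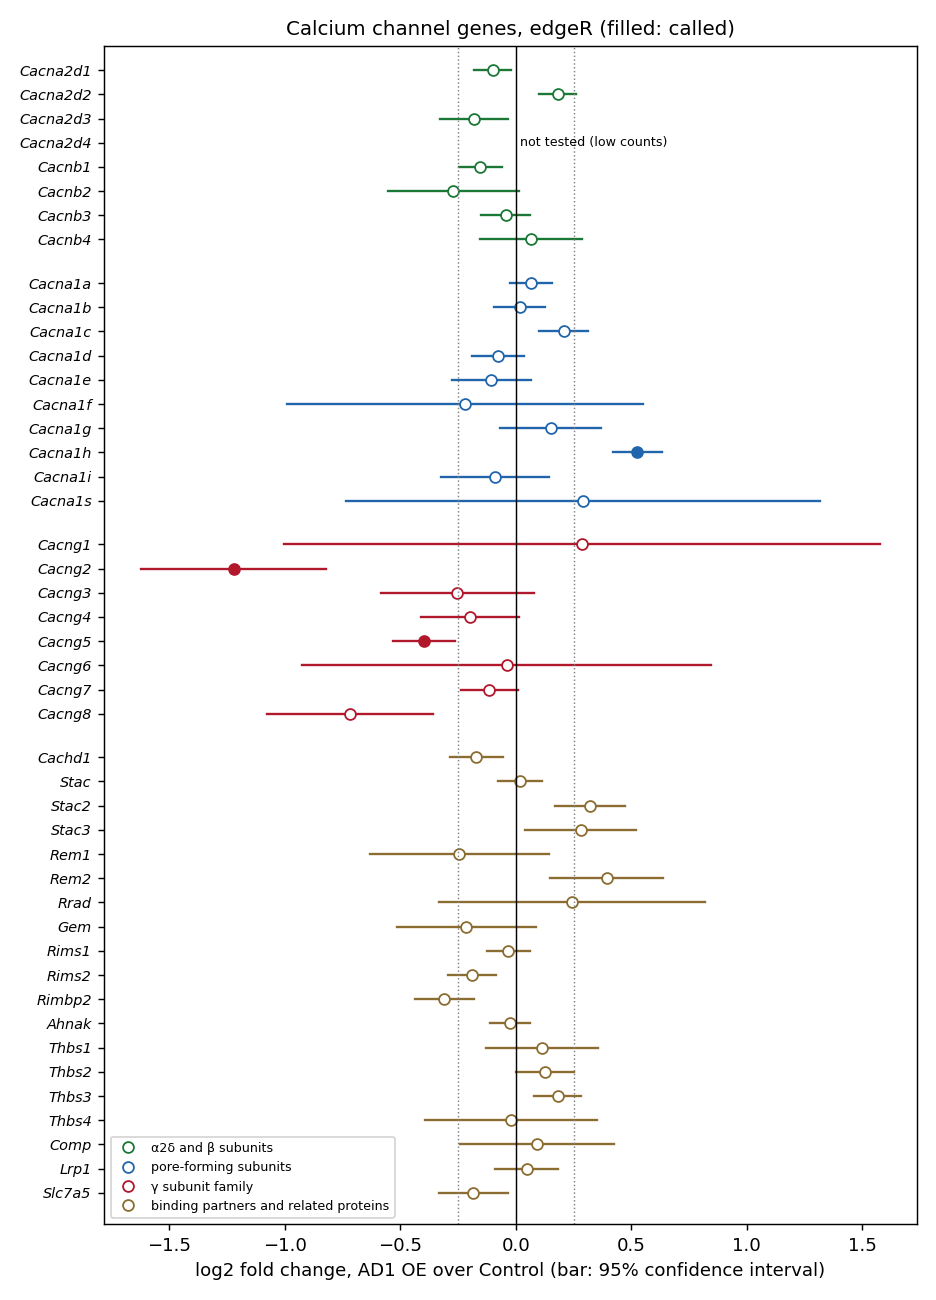
Log2 fold change of AD1 OE over Control with 95% confidence intervals (edgeR) for the α2δ and β genes, the pore genes, the γ family and binding partners. Filled points passed the call, and dotted lines mark a log2 fold change of 0.25 in either direction. The 7 tested α2δ and β genes lie between -0.27 and 0.18, and the called genes are Cacna1h, Cacng2 and Cacng5.

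Of the 10 pore genes, 1 rose, 0 fell and 9 did not pass, with a median log2 fold change of 0.042. Over all tested genes, 0.784% were called as higher and 1.78% as lower. Cacna1h, which encodes the T-type pore Cav3.2 of sensory neurons and is active without needing a β subunit, was at 259.6, 228.4, 261.9 and 260.8 CPM in the AD1 OE libraries and at 166.5, 179.0, 178.2 and 178.0 CPM in the Control libraries. The groups were far apart, and the gene rose by 0.53 on the log2 scale (SE 0.048, adjusted p = 3.59e-05, edgeR with Benjamini-Hochberg). Cacna1c, the L-type pore Cav1.2, was at 169.4 ± 9.39 and 146.8 ± 7.74 CPM (SD, n = 4), with a log2 fold change of 0.21 and an adjusted p of 0.0229. With sex as a term the edgeR adjusted p was 0.118 for Cacna1c and 0.000136 for Cacna1h. Cacna1b, the N-type pore and the most abundant of the 10 per kb of exon, had a log2 fold change with a 95% confidence interval of -0.094 to 0.13. The muscle pore gene Cacna1s was highest in AD1 OE replicate 3, at 3.59 CPM, the library with the highest muscle marker sum. The part of muscle tissue in the Cacna1s values was not tested.

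The γ family holds the muscle subunit γ1 and several proteins that act on AMPA receptors. Of its 8 genes, 2 fell, 0 rose and 6 did not pass, and the median log2 fold change was -0.23. Among all tested genes, 1.78% were called as lower and 0.784% as higher. The Cacng5 means, 24.7 ± 1.19 CPM in AD1 OE against 32.5 ± 2.26 CPM in Control (SD, n = 4), gave a log2 fold change of -0.40 (SE 0.062, adjusted p = 0.00181, edgeR with Benjamini-Hochberg). Cacng2, or stargazin, was at 1.94, 1.87, 2.64 and 2.01 CPM in the AD1 OE libraries and at 6.74, 4.11, 3.97 and 4.97 CPM in the Control libraries, a log2 fold change of -1.22 (SE 0.18, adjusted p = 0.00149). Control replicates 1 and 4, the highest for Cacng2, also had the highest spinal cord marker sums. Control replicate 2 had the lowest such sum (2.80 CPM) and was at 4.11 CPM for Cacng2. The part of spinal cord tissue in these values was not tested. Without Control replicate 1 the log2 fold change of Cacng2 was -1.04 and the call held, and without Control replicate 4 it was -1.21 with an adjusted p of 0.00541, which missed the call. Neither call of the family held without AD1 OE replicates 1, 2 or 4 or Control replicate 4, Cacng5 also missed it without Control replicate 2, and Cacng2 missed it with sex as a term (adjusted p = 0.00553). Cacng8 had a log2 fold change of -0.72 and an adjusted p of 0.0217, or 0.0595 with sex as a term (edgeR).

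The list of 19 binding partners held proteins that attach to β (the RGK GTPases Rem1, Rem2, Rrad and Gem, the active-zone proteins Rims1 and Rims2, and Ahnak), extracellular and trafficking partners of α2δ (thrombospondins, Comp and Lrp1), and related or linked proteins (Cachd1, the Stac adaptors, Rimbp2 and Slc7a5). By edgeR 0 of the 19 were called and 8 had an unadjusted p under 0.05, beside the 18.6% of all tested genes, while DESeq2 called 2 (Rimbp2 and Stac2) and limma-voom 0. The median log2 fold change was 0.019. Rimbp2, a scaffold that links RIM to calcium channels, had the lowest, at -0.31 (SE 0.059, adjusted p = 0.00764). Rims2 was at -0.19 (adjusted p = 0.0366). On the positive side, Stac2 was at 0.32 (adjusted p = 0.0159), and Thbs3, a thrombospondin, at 0.18 (adjusted p = 0.0380), all from edgeR with Benjamini-Hochberg adjustment. Rem2 had the largest positive log2 fold change, 0.39, with an adjusted p of 0.0646. With sex as a term, the edgeR adjusted p was 0.0981 for Rims2, 0.0676 for Stac2 and 0.0574 for Thbs3. It was 0.0115 for Rimbp2 and 0.0295 for Rem2.

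Since no subunit gene was called, profile likeness was described for Cacna2d2, the member with the smallest p. The measure was the root mean square distance between log2 CPM profiles over the 8 libraries, each centred on its own mean. It was taken to 13944 genes that averaged 1 CPM or more and had a symbol that was not clone-based. The nearest genes were N4bp2 (distance 0.0275), Kcnk4 (0.0291), which encodes the background potassium channel TRAAK, and Kat6b (0.0302), a histone acetyltransferase, where the median gene lay at 0.139. Mean levels of Kcnk4 were 32.6 CPM (AD1 OE) and 28.3 CPM (Control).

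**Figure D4:**
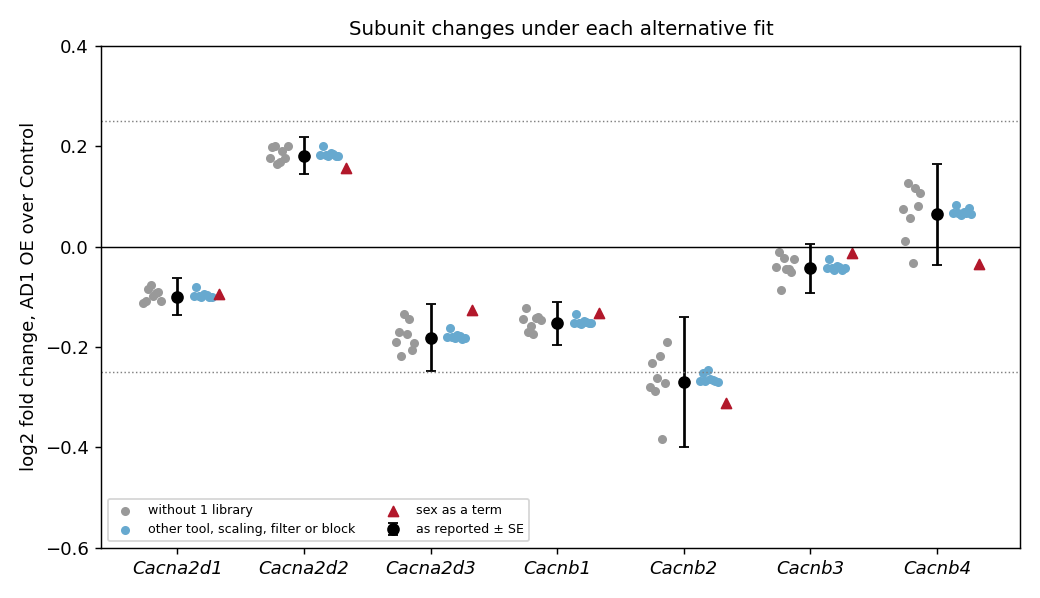
Log2 fold change of AD1 OE over Control for the 7 tested subunit genes as reported (black, ± SE), without 1 library at a time (grey), with another tool, scaling, filter or the replicate number as a block (blue), and with sex as a term (red triangles). Dotted lines mark a log2 fold change of 0.25 in either direction. Cacna2d2 stays between 0.16 and 0.20, and Cacnb4 crosses 0.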

How the data were processed

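Total RNA of E18.5 DRG was made into libraries with the Illumina stranded mRNA kit. Per the labels, the authors used bcl2fastq 2.20.0.422, STAR 2.7.8a with GRCm39 and featureCounts 2.0.1, and deposited raw counts per Ensembl gene for each library, neither normalised nor pooled. Whether counting used the strand was not given in the sources used here, so exons shared with genes on the other strand are stated.

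The counts were tested with edgeR 4.0.16 under R 4.3.3 (filterByExpr, TMM, the quasi-likelihood F test on genotype alone, Benjamini-Hochberg adjustment over the 17721 tested genes). A call needed an adjusted p below 0.005 and a log2 fold change above 0.25 in size, thresholds chosen to match the study's for these groups. The study used DESeq2, which was run as an alternative (version 1.42.0), as was limma-voom (limma 3.58.1). CPM values came from TMM-scaled totals and are mean ± SD over 4 libraries. Gene symbols (52133 of 55414 genes), exon lengths, shared exons and coding sequences came from GENCODE M21, which is on GRCm38, whereas the reads were aligned to GRCm39. Sex was read from Xist and 4 Y-linked genes. The common biological coefficient of variation was 8.22%. No pair of libraries of a group was a duplicate, since counts differed by 4.37 to 12.1 times the sampling variance. The exact Poisson intervals cover counting error only, since they hold no term for variation between libraries. The edgeR intervals of fold changes include that variation. Reads carried no molecular identifiers.

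The members, lists and tests were chosen with earlier results of these data known. Named were all members, the pore, γ and partner lists, checks of Dach1, Avil and sex genes, and the 3 genes nearest to the member with the smallest p. The tests were checked on simulated counts. Alternatives were other scalings, filters, thresholds and tools, robust empirical Bayes, the replicate number as a block, sex as a term, the longest transcript as gene length, and leaving out each library. Same-numbered libraries deviated together only for replicate 4 (correlation 0.31), and the numbers were not taken as pairs. Protein sequences were not used here.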

Additional observations from a re-analysis of the deposited data

Results flagged for a closer look

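The 45 subunit, pore, γ and partner genes gave 90 groups of 4 libraries, and the shares, sums and ratios of the families gave 28 more. In 9 of these 118 groups the gap of 1 library to the nearest other, divided by the range of the group, was above Dixon's 95% critical value. Chance gives such a gap in about 1 of 20 groups. Among the pore genes, Cacna1h was at 228.4 CPM in AD1 OE replicate 2 (nearest library of the group 259.6 CPM) and at 166.5 CPM in Control replicate 1 (nearest 178.0 CPM). Cacna1c was at 135.2 CPM in Control replicate 1 (nearest 150.4 CPM), and Cacna1a at 141.03 CPM in Control replicate 2 (nearest 136.8 CPM). Cacna1f was at 0.144 CPM in AD1 OE replicate 4 (nearest 0.534 CPM). Among the partners, Rimbp2 was at 34.1 CPM in AD1 OE replicate 1 (nearest 30.2 CPM) and Stac at 90.9 CPM in Control replicate 1 (nearest 99.6 CPM). Thbs4 was at 22.6 CPM in AD1 OE replicate 4 (nearest 30.8 CPM), and Lrp1 at 218.5 CPM in AD1 OE replicate 2 (nearest 257.0 CPM). None of the 16 groups of the 8 α2δ and β genes had such a library.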

How the results depend on the processing

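None of the 7 α2δ and β genes tested was called under any scaling, filter, tool, block, sex term or left-out library, and 1 was called, Cacna2d2 at a log2 fold change of 0.18, when the threshold was an adjusted p under 0.05 at any fold. Cacnb4 changed sign with sex as a term (-0.034) and ranged from -0.032, without Control replicate 1, to 0.13 when 1 library was left out, and the 6 other tested members kept their direction throughout. The cause was not tested. Without 1 library, Cacna2d2 ranged from 0.17 to 0.20.

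Over all genes, 747 passed without an expression filter, 1161 at an adjusted p of 0.05, 129 with an absolute log2 fold change over 1 besides, and 289 to 420 without 1 library, the lowest without AD1 OE replicate 1. At an adjusted p of 0.05 the pore list had 2 such genes, and 0 with a log2 limit of 1. Of the γ genes, 1 was called with sex as a term, 1 with that limit, and 0 to 2 without 1 library. Of the partners, 2 were called by DESeq2, 2 without a filter, 1 with robust empirical Bayes, 4 at an adjusted p under 0.05, and 0 to 1 without 1 library.

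With the replicate number as a block, 348 genes were called, of which 333 were also among the 455, 0 members, and 1 γ gene, and the adjusted p of Cacna2d2 was 0.0342. The deviations of same-numbered libraries correlated at -0.0099, -0.054, -0.035 and 0.31. Only replicate 4 had its highest correlation with its own number. What the numbers stand for is not given in the sources used here. Sex was unequal between the groups, with 1 library in a group in each sex, and Cacna2d4 had an adjusted p only without the filter on low counts.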
